A study of Mus musculus with 12 samples.

Results

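The genes described here encode 10 cytokine receptor chains that were measured in CD4+ cells sorted from mouse thymus: Il4ra, Il6ra, Il6st, Il21r, Il27ra, Il10ra, Ifngr1, Ifnar1, Il17ra and Il18r1. They were chosen by gene symbol, and all 10 were found among the 13207 genes of the deposited tables and passed the filter on low values. RNA sequencing covered 12 libraries in 4 sorted groups of 3 libraries each. All cells came from C57BL/6 mice injected intraperitoneally with tamoxifen in olive oil at 10 μg/g and killed 7 days later, so that every group, Tconv included, carries the same treatment. CD73+ newly generated regulatory T cells (CD73+ new Treg) were CD4+tdTomato+GFP+CD73+. CD73- newly generated regulatory T cells (CD73- new Treg) were CD4+tdTomato+GFP+CD73-. Bulk Treg without the time stamp (tdTomato- Treg) were CD4+tdTomato-GFP+ and were not divided by CD73. Newly generated conventional T cells (Tconv) were CD4+tdTomato+GFP-CD73-. The alleles behind tdTomato and GFP, the driver of the labelling and the ages of the mice are not given in the sources used here. Libraries are called A, B and D after the letter in their titles. The labels do not tie the libraries to separate animals. The p-values therefore rest on the variation among libraries, some of which may be technical.

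Cytokine receptors are assembled from chains that bind the ligand and chains that carry Janus kinases (JAK). Ligand binding lets the kinases phosphorylate signal transducers and activators of transcription (STAT), which then enter the nucleus. Il6ra, Il6st, Il4ra, Il21r and Il27ra encode class I chains, and Il10ra, Ifngr1 and Ifnar1 encode class II chains. Il17ra and Il18r1 belong to other families that signal through adaptor proteins and NF-kB. In T cells, interleukin-6 and interleukin-21 signal mainly through STAT3, interleukin-4 through STAT6, and interleukin-10 through STAT3.

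Levels are log2 CPM, counts scaled to a common library total, and differences are log2 fold changes, both for whole cell populations, in which fewer cells of a type and less RNA per cell cannot be told apart. The libraries had an effective depth of 11000000 to 21400000 counts, and a log2 CPM of -2.61 to -1.65 is the limit that 3 counts allow. The new Treg stand in one deposited table and tdTomato- Treg and Tconv in another, and the authors scaled the tables separately, so tests were made only within a table and levels set across tables are a description. Over 11167 genes, the median level in new Treg lay 0.02 below that in tdTomato- Treg and 0.03 below that in Tconv (differences -0.02 and -0.03 on the log2 scale). Foxp3, the lineage factor of Treg, had a log2 CPM of 9.19 ± 0.07 in CD73+ new Treg, 9.16 ± 0.05 in CD73- new Treg, 9.11 ± 0.05 in tdTomato- Treg and 0.18 ± 0.85 in Tconv (SD, n = 3 each). Nt5e, which encodes CD73, was 7.29 ± 0.14 in CD73+ new Treg and 5.54 ± 0.17 in CD73- new Treg. Nt5e follows the CD73 gate, which used its protein, and Foxp3 separates the GFP+ groups from the GFP- group. CD73- new Treg replicate B stood apart in genes of immature thymocytes, with a log2 CPM of 4.75 for Rag1, 4.35 for Dntt and 2.85 for Cd8a, against at most 2.72, 2.92 and 0.75 in replicates A and D of that group. The Lars2 share of summed CPM ran from 28.6% to 30.3% in CD73+ new Treg, 22.9% to 28.8% in CD73- new Treg, 30.8% to 32.4% in tdTomato- Treg and 16.2% to 27.4% in Tconv, and its part in the results was not tested.

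Between tdTomato- Treg and Tconv, 8 of the 10 receptor genes were higher in tdTomato- Treg, Il17ra was lower and Il27ra did not pass the threshold. These groups differ at once in GFP, in tdTomato and in the CD73 gate, and the parts of each cannot be told apart. The threshold is an adjusted p under 0.05 in limma. Of all 11198 genes tested in this comparison 52.1% passed it, 26.4% higher and 25.7% lower, so a called member is not unusual in itself. The sizes were far apart: Il18r1, Ifngr1 and Il10ra were higher by 6.42-fold, 4.41-fold and 2.48-fold, while the other 5 that rose did so by 1.12-fold to 1.27-fold. The median log2 fold change of the 10 genes was 0.33, against -0.01 over all genes tested. Between CD73+ and CD73- new Treg, Il10ra alone passed the threshold, at 1.53-fold, and the median of the 10 was 0.01, the same as over all genes. In that comparison 2.44% of 11170 genes passed, 1.79% higher and 0.654% lower. No member was called lower there, where Il6st and Il17ra had negative differences at an unadjusted p under 0.05.

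**Figure D1:**
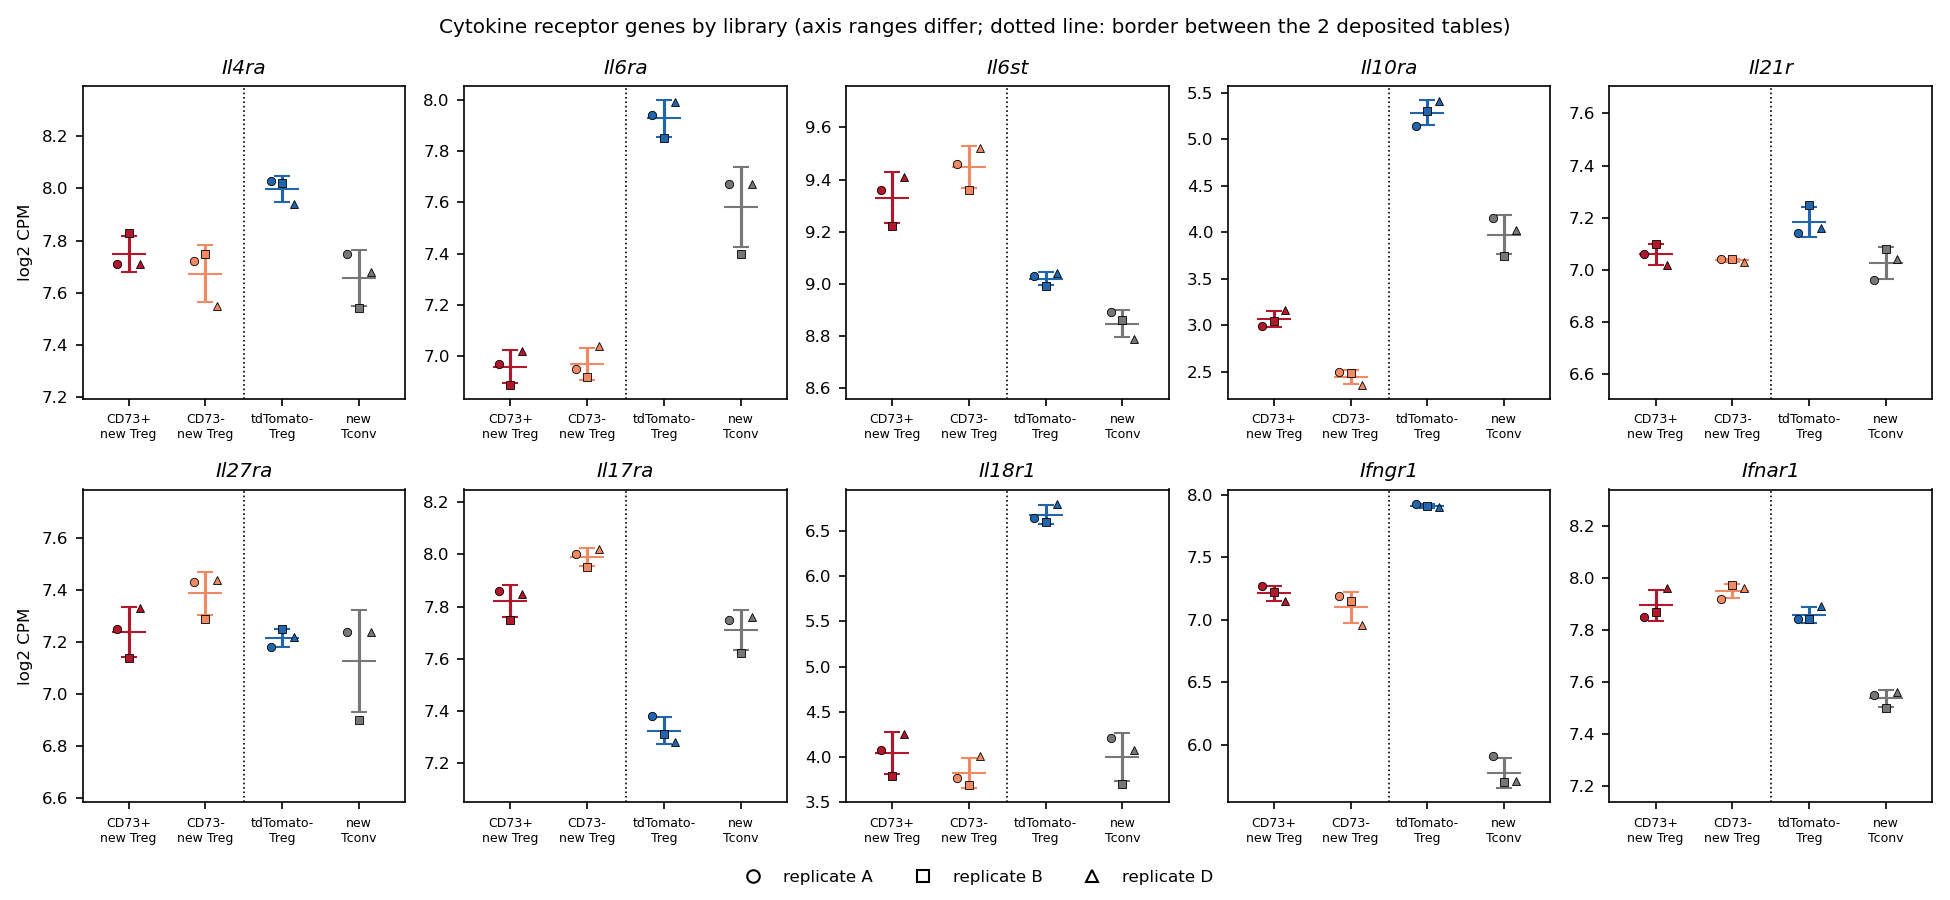
Levels of the 10 receptor genes in each library. The y axis is log2 CPM and its range differs between panels, points are libraries with a symbol per replicate letter, and bars are the mean and SD of 3 libraries. The dotted line marks the border between the separately scaled tables. Il18r1 sits at 6.60 to 6.80 in tdTomato- Treg and at or under 4.25 in the other groups, and Ifngr1 is lowest in Tconv, at 5.70 to 5.91.

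The genes also differ in their promoter sequence. RefSeq start sites on GRCm38.p6 were available for 7 of the 10 genes, and not for Il10ra, Il17ra and Il27ra. The windows are the 250 bases before each start, 9 windows in all because Il18r1 has 3 starts. The number of CG pairs was 26 for Il6st, 19 for Ifnar1, 18 for Il6ra, 17 for Il4ra and 11 for Ifngr1, against 4 for Il21r and 3, 7 and 6 for the starts of Il18r1, with a median of 6 over 32851 promoters. The window richest in CG pairs, that of Il6st, is shown with that of Ifngr1, the gene with the highest fold change among those whose window overlaps no annotated exon, and with that of Il21r, the poorest in CG pairs of the windows free of exons. Capitals mark CG pairs, each window reads 5′ to 3′ on the plus strand, and the positions are chr13:112463820-112464069, chr10:19591699-19591948 and chr7:125603179-125603428.
Il6st: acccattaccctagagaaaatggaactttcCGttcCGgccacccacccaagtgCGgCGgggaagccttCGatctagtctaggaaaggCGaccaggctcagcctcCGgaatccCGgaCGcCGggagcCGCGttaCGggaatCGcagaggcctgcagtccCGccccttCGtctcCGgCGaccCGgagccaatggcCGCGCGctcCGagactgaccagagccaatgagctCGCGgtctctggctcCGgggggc
Ifngr1: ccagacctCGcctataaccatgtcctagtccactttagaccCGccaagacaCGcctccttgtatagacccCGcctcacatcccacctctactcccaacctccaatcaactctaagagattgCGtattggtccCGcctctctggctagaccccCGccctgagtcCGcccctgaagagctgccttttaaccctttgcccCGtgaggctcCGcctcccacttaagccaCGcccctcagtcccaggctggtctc
Il21r: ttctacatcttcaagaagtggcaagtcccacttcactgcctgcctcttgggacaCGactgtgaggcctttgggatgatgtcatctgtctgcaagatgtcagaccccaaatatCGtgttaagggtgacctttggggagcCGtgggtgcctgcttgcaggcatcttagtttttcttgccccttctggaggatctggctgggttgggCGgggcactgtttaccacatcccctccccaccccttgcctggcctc

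The same windows were searched on both strands for 6 motifs: the STAT motif TTCNNNGAA (in 7.02% of all promoters), the interferon-stimulated response element (2.98%), the NF-kB motif (1.41%), the AP-1 motif TGANTCA (6.75%), the forkhead motif TGTTTAC (3.17%) and the Runx motif TGTGGTT (4.40%). None of the 6 was in the windows of Il4ra, Il6ra, Il6st, Ifngr1 and Ifnar1, and the Il21r window held a forkhead match. The window of the third Il18r1 start held the STAT motif at 219 and at 152 bases before that start, which is shown because Il18r1 had the highest fold change of the 10 genes. That window lies after the annotated beginning of the gene and overlaps 3 annotated exons. The windows of the other Il18r1 starts held none of the 6 motifs. Capitals mark the match, and the positions are chr1:40465777-40465805 and chr1:40465844-40465872. A match is a description of letters and not a site.
Il18r1, 219 bases before the start: tcggggttagTTCTGGGAActgtggagct
Il18r1, 152 bases before the start: agtacaggtcTTCCCAGAActgaaagctt

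Il18r1 (ENSMUSG00000026070.15, chr1:40465552-40500854, plus strand, GENCODE M21) encodes the ligand-binding chain of the interleukin-18 receptor. Its log2 CPM was 6.64, 6.60 and 6.80 in tdTomato- Treg, against 4.21, 3.70 and 4.08 in Tconv. All tdTomato- Treg libraries lay above all Tconv libraries (log2 fold change 2.68, SE 0.14, limma adjusted p = 5.1e-11, n = 3 each). In CD73+ new Treg it was 4.08, 3.79 and 4.25, and in CD73- new Treg 3.77, 3.69 and 4.01. These groups overlapped (log2 fold change 0.22, 95% interval -0.07 to 0.51, limma adjusted p = 0.44). Each of them also overlapped the Tconv range in the other table. Il18rap, the signalling partner chain, was higher in tdTomato- Treg too, at 4.28, 4.39 and 4.27 against 0.65, 0.85 and -0.41 in Tconv (log2 fold change 3.95, SE 0.55, limma adjusted p = 1.4e-05). Between CD73+ and CD73- new Treg its difference of 1.53 did not pass (SE 0.55, limma adjusted p = 0.16) and did so with the replicate letter as a block (adjusted p = 0.045). It depended on single libraries, with 2.10 without CD73- new Treg replicate B (adjusted p = 0.046) and 0.59 without CD73- new Treg replicate D (adjusted p = 0.425). It was at -2.14 in CD73- new Treg replicate D, under that library's 3-count limit of -1.65.

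Ifngr1 (ENSMUSG00000020009.13, chr10:19591949-19610229, plus strand) encodes the ligand-binding chain of the interferon-gamma receptor. Its log2 CPM was 7.93, 7.91 and 7.90 in tdTomato- Treg and 5.91, 5.70 and 5.71 in Tconv, with no overlap (log2 fold change 2.14, SE 0.07, limma adjusted p = 8.9e-14, n = 3 each). In CD73+ new Treg it was 7.27, 7.22 and 7.15, and in CD73- new Treg 7.19, 7.15 and 6.96, ranges that overlapped (log2 fold change 0.11, 95% interval -0.03 to 0.26, limma adjusted p = 0.41). Both new Treg ranges lay between those of Tconv and tdTomato- Treg. Ifngr2, the chain that completes this receptor, ran the other way. It was 5.59, 5.44 and 5.46 in tdTomato- Treg and 6.17, 6.10 and 6.12 in Tconv (log2 fold change -0.63, SE 0.07, limma adjusted p = 4.8e-07).

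Il10ra (ENSMUSG00000032089.16, chr9:45253837-45269149, minus strand) encodes the ligand-binding chain of the interleukin-10 receptor and was the receptor gene that passed the threshold in both comparisons upwards. It was 5.14, 5.30 and 5.41 in tdTomato- Treg and 4.15, 3.74 and 4.02 in Tconv (log2 fold change 1.31, SE 0.13, limma adjusted p = 1.6e-07, n = 3 each). In CD73+ new Treg it was 2.99, 3.04 and 3.16, against 2.50, 2.48 and 2.36 in CD73- new Treg. Every CD73+ library lay above every CD73- library (log2 fold change 0.62, SE 0.13, limma adjusted p = 0.016), and without CD73- replicate B the difference was 0.63 (adjusted p = 0.023). The 4 groups did not overlap anywhere, and both new Treg groups stood below Tconv, in the other table. The call between CD73+ and CD73- new Treg ended without CD73+ replicate B (adjusted p = 0.0506), CD73+ replicate D (0.0535) or CD73- replicate D (0.0567), without all libraries of letter D (0.231) and with only the groups compared in the fit (0.117), and by the authors' deposited table the adjusted p is 0.135. The difference was 0.525 to 0.65 over these and the other left-out libraries. Il10rb, the partner chain shared with other class II receptors, averaged 5.80 ± 0.03 in tdTomato- Treg and 4.17 ± 0.09 in Tconv (SD, n = 3 each), a log2 fold change of 1.63 (SE 0.09, limma adjusted p = 8.0e-11), and its difference between CD73+ and CD73- new Treg was 0.05 (SE 0.09, adjusted p = 0.82).

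Ifnar1 (ENSMUSG00000022967.13, chr16:91485238-91507441, plus strand) encodes a chain of the type I interferon receptor. It was 7.84, 7.84 and 7.89 in tdTomato- Treg and 7.55, 7.50 and 7.56 in Tconv (log2 fold change 0.32, SE 0.05, limma adjusted p = 1.7e-05, n = 3 each). Newly generated CD73+ Treg had 7.85, 7.87 and 7.96, and in CD73- new Treg 7.92, 7.97 and 7.96, so that all 3 Treg groups lay above Tconv and the new Treg groups overlapped each other (log2 fold change -0.06, 95% interval -0.15 to 0.04, limma adjusted p = 0.56). Ifnar2, its partner, rose by 0.56 in tdTomato- Treg against Tconv (SE 0.07, limma adjusted p = 5.6e-06).

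Il6ra and Il6st encode the interleukin-6 binding chain and gp130, the signalling chain shared by the interleukin-6 family. Il6ra (ENSMUSG00000027947.11, chr3:89864059-89913196, minus strand) was 7.94, 7.85 and 7.99 in tdTomato- Treg and 7.67, 7.40 and 7.67 in Tconv (log2 fold change 0.35, SE 0.07, limma adjusted p = 4.9e-04, n = 3 each). It stood lower in new Treg, at 6.97, 6.89 and 7.02 in CD73+ cells and 6.95, 6.92 and 7.04 in CD73- cells, which overlapped (log2 fold change -0.01, 95% interval -0.16 to 0.14, limma adjusted p = 0.96). Il6st (ENSMUSG00000021756.12, chr13:112464070-112510086, plus strand) had the opposite order across the tables. It was 9.36, 9.22 and 9.41 in CD73+ new Treg and 9.46, 9.36 and 9.52 in CD73- new Treg, overlapping ranges that lay above both groups of the other table (log2 fold change -0.12, 95% interval -0.23 to -0.0008, limma adjusted p = 0.29). In tdTomato- Treg it was 9.03, 8.99 and 9.04, against 8.89, 8.86 and 8.79 in Tconv (log2 fold change 0.17, SE 0.05, limma adjusted p = 0.014). That call ended without Tconv replicate D (adjusted p = 0.0643) and without the libraries of letter D (0.116).

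Il27ra (ENSMUSG00000005465.9, chr8:84030294-84042589, minus strand) encodes the interleukin-27 binding chain, which also pairs with gp130. It was the member that passed the threshold in neither comparison and whose groups overlapped in both. Its log2 CPM was 7.18, 7.25 and 7.22 in tdTomato- Treg against 7.24, 6.90 and 7.24 in Tconv (log2 fold change 0.09, 95% interval -0.08 to 0.26, limma adjusted p = 0.37, n = 3 each). Without Tconv replicate B, its lowest library, the difference was -0.02 (adjusted p = 0.79). Among new Treg it was 7.25, 7.14 and 7.33 in CD73+ cells and, in CD73- cells, 7.43, 7.29 and 7.44 (log2 fold change -0.15, 95% interval -0.32 to 0.02, limma adjusted p = 0.37). A difference of up to 0.32 on the log2 scale is within that interval.

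Il4ra and Il21r, which both pair with the common gamma chain encoded by Il2rg, differed little between groups. Il4ra (ENSMUSG00000030748.9, chr7:125552120-125579474, plus strand) was 8.03, 8.02 and 7.94 in tdTomato- Treg and 7.75, 7.54 and 7.68 in Tconv (log2 fold change 0.34, SE 0.06, limma adjusted p = 2.8e-04, n = 3 each). In CD73+ new Treg it was 7.71, 7.83 and 7.71, and in CD73- new Treg 7.72, 7.75 and 7.55, which overlapped one another and Tconv (log2 fold change 0.08, 95% interval -0.06 to 0.21, limma adjusted p = 0.58). Il21r (ENSMUSG00000030745.9, chr7:125603429-125633570, plus strand) had 7.14, 7.25 and 7.16 in tdTomato- Treg against 6.96, 7.08 and 7.04 in Tconv (log2 fold change 0.16, SE 0.05, limma adjusted p = 0.016). This call ended without tdTomato- Treg replicate B (adjusted p = 0.0911) or Tconv replicate A (0.0821), without the libraries of letter D (0.0736), and when libraries were centred on their median (0.06) or quantile normalised (0.0612). In new Treg Il21r was 7.06, 7.10 and 7.02 with CD73 and 7.04, 7.04 and 7.03 without it (log2 fold change 0.02, 95% interval -0.08 to 0.13, limma adjusted p = 0.86). Il2rg itself was lower in tdTomato- Treg, at 8.25 ± 0.05 against 8.55 ± 0.02 in Tconv (SD, n = 3; log2 fold change -0.30, SE 0.05, limma adjusted p = 6.7e-05).

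Il17ra (ENSMUSG00000002897.5, chr6:120463247-120487559, plus strand), the chain common to interleukin-17 receptors, was the member that fell. It was 7.38, 7.31 and 7.28 in tdTomato- Treg and 7.75, 7.62 and 7.76 in Tconv (log2 fold change -0.39, SE 0.05, limma adjusted p = 9.7e-06, n = 3 each). In CD73+ new Treg it was 7.86, 7.75 and 7.85, against 8.0, 7.95 and 8.02 in CD73- new Treg. The CD73+ and CD73- ranges did not overlap, as for 18.2% of all genes tested. The difference (log2 fold change -0.17, SE 0.05) did not pass the threshold (limma adjusted p = 0.10) and did so with the replicate letter as a block (adjusted p = 0.027).

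**Figure D2:**
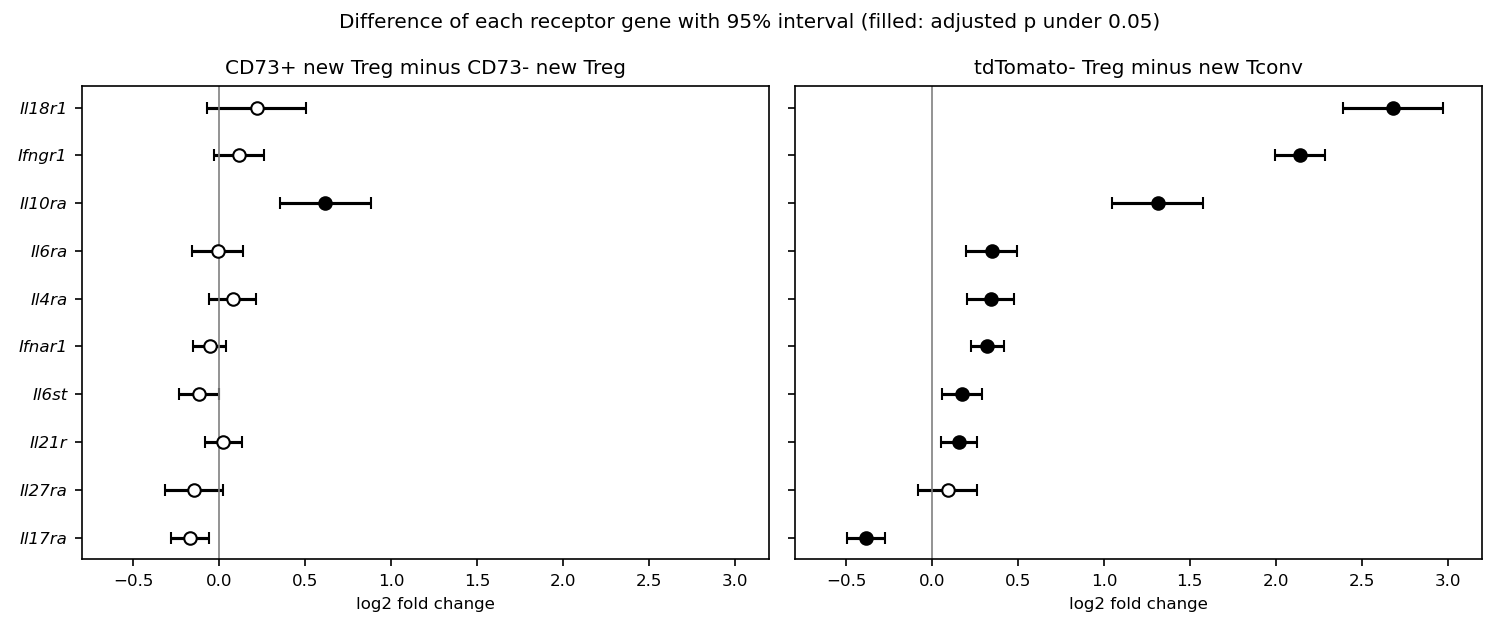
Log2 fold change of each receptor gene on the x axis, with its 95% interval, for CD73+ minus CD73- new Treg at the left and tdTomato- Treg minus Tconv at the right. Filled points passed an adjusted p under 0.05. At the left Il10ra alone is filled, at 0.62. At the right Il27ra alone is open, and Il18r1, Ifngr1 and Il10ra lie apart at 2.68, 2.14 and 1.31.

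Groups did not overlap for 9 of the 10 genes between tdTomato- Treg and Tconv, where 60.9% of all genes tested had groups apart. Between CD73+ and CD73- new Treg they did not overlap for 2 of 10, near the 18.2% of all genes tested. Whether the differences of a gene in the comparisons themselves differ was not tested. By the authors' deposited table the log2 fold changes for tdTomato- Treg against Tconv were 2.70 for Il18r1, 2.14 for Ifngr1 and 1.33 for Il10ra.

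Set per kilobase of merged exon, on the CPM scale, Il6st was the most abundant of the 10 in CD73+ new Treg (58.1 ± 3.91 CPM per kb; SD, n = 3), CD73- new Treg (62.9 ± 3.5) and Tconv (41.5 ± 1.47). In tdTomato- Treg Ifngr1 came first, at 84.7 ± 0.898 CPM per kb, while in Tconv it was eighth in order, at 19.3 ± 1.62. Il10ra was the least abundant in CD73+ new Treg (2.39 ± 0.146), CD73- new Treg (1.56 ± 0.081) and tdTomato- Treg (11.2 ± 1.04), and Il18r1 in Tconv (3.35 ± 0.589). These levels depend on the exon model, and transcripts in use may be shorter than merged exons.

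Several of these genes lie in clusters of receptor genes, and neighbours did not move by the same amount. On chromosome 16 Ifnar2, Il10rb, Ifnar1 and Ifngr2 follow each other with no other protein-coding gene between them, and their log2 fold changes in tdTomato- Treg against Tconv were 0.56, 1.63, 0.32 and -0.63. Il21r begins 23954 bases after the end of Il4ra. Il18r1 begins 136 bases after the annotated end of Il1rl1, the interleukin-33 receptor gene, and Il18rap follows 14507 bases after Il18r1. Il1rl1 had a log2 CPM of 4.35, 4.41 and 4.52 in tdTomato- Treg and of -2.81, -2.25 and -3.58 in Tconv, where replicates A and D were under their 3-count limits (limma adjusted p = 2.9e-09). Whether reads that run on from Il1rl1 enter the count of Il18r1 was not tested. In new Treg Il1rl1 was also higher with CD73 (-0.10, -0.19 and -0.51 in CD73+ against -4.81, -3.53 and -4.46 in CD73- cells, limma adjusted p = 6.9e-04). All 3 CD73- libraries were under their 3-count limits. The difference of Il18r1 did not pass there, which cannot decide the question of run-on reads. Over the CD73+ libraries Il1rl1 had only about 38 counts, against about 786 for Il18r1. In tdTomato- Treg the counts were about 975 and 4654. The call of Il1rl1 in new Treg was lost with only the groups compared in the fit (adjusted p = 0.059), and without the libraries of letter D the gene did not pass the filter on low values. Zbtb16 and Nkg7, markers of innate-like and cytotoxic cells, were also higher in CD73+ new Treg (3.88 and 1.68, limma adjusted p = 0.0045 and 0.0027; 2.95 and 1.57 without letter D, adjusted p = 0.106 and 0.0682), and their part in the differences of Il10ra, Il18rap and Il1rl1 was not tested. Zbtb16 was at or under 3 counts in 2 of the CD73- libraries. Of 5 innate-like T and NK markers tested there Zbtb16 alone passed. The others were Xcl1 at 1.23, Il2rb at 0.17, Eomes at 0.02 and Gzma at -0.73. An unadjusted p under 0.05 was reached by 3 of the 5, against 17.2% of all genes tested. Of 8 CD8 and double-positive markers tested Nkg7 rose and Aqp11 fell, and the median log2 fold change of the 8 was -0.62.

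**Figure D3:**
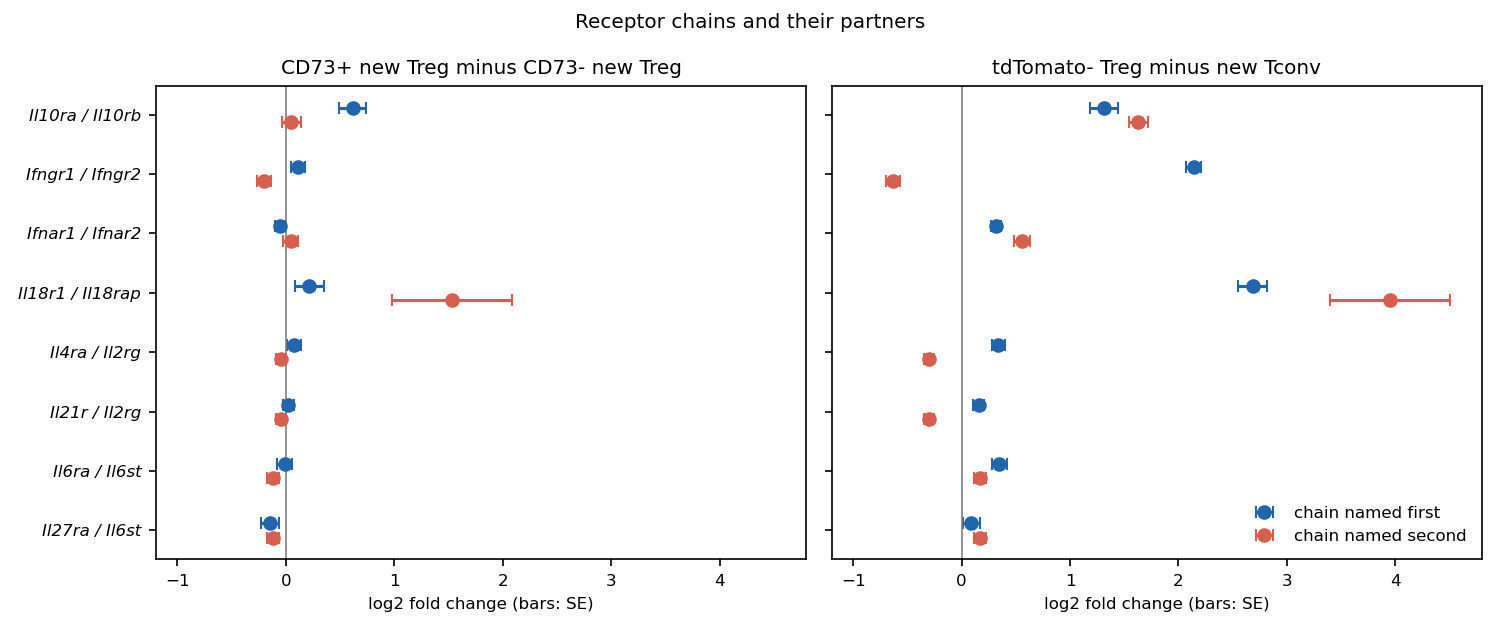
Log2 fold changes (x axis) of receptor chains that work as pairs, with the chain named first in blue and the chain named second in red. Bars are SE, with CD73+ minus CD73- new Treg at the left and tdTomato- Treg minus Tconv at the right. At the right both chains rose for Il10ra with Il10rb, Ifnar1 with Ifnar2, Il18r1 with Il18rap and Il6ra with Il6st. Ifngr2 and Il2rg lie below zero there beside partners above it.

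Of 32 partner and related receptor chains listed, 27 were in the files. In tdTomato- Treg against Tconv 22 were tested, of which 12 rose and 4 fell, with a median log2 fold change of 0.70 against -0.01 over all genes. The counts of this and the following lists in that comparison stand beside 52.1% of all genes tested that passed. Besides Il10rb and Il1rl1 the smallest p-value among those that rose was that of Il9r, the interleukin-9 receptor (3.75 ± 0.08 in tdTomato- Treg against -1.44 ± 0.74 in Tconv; SD, n = 3; limma adjusted p = 1.7e-08). The chains that fell were Ifngr2, Il2rg, Il17rb, a receptor of interleukin-25 (log2 fold change -1.21, SE 0.21, limma adjusted p = 1.4e-04), and Il12rb2, a chain of the interleukin-12 receptor (-1.62, SE 0.29, limma adjusted p = 1.7e-04), the last outside the rule for named genes. Between CD73+ and CD73- new Treg 21 were tested, and by limma Il1rl1 rose and none fell. There 9 of the 21 had an unadjusted p under 0.05, against 17.2% of all genes tested. With the block 4 passed, Il1rl1, Il18rap and Il1r2 (2.74, adjusted p = 0.021) higher and Ifngr2 lower (-0.20, adjusted p = 0.045).

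All 11 JAK and STAT genes were tested. In tdTomato- Treg against Tconv 8 rose and 2 fell, with a median log2 fold change of 0.52. Stat4 rose by 1.27 (SE 0.06, limma adjusted p = 1.2e-11), Stat5a by 1.22 (SE 0.06, adjusted p = 8.9e-11) and Stat3 by 0.94 (SE 0.05, adjusted p = 9.7e-11). Stat6, which interleukin-4 activates, rose by 0.52 (SE 0.05), and was added to the genes named by rule. Jak1, the kinase that most of these receptors use, fell by 0.30 (SE 0.04, limma adjusted p = 1.7e-05). Jak2 fell by 0.14 (SE 0.06, adjusted p = 0.040), a call that ended without tdTomato- Treg replicate A (0.116) or B (0.124) or Tconv replicate B (0.179) or D (0.0647), and without the libraries of letter D (0.085). None of the 11 passed between CD73+ and CD73- new Treg by limma, and 1 had an unadjusted p under 0.05, against 17.2% of all genes tested. With the block Stat4 was lower there (log2 fold change -0.22, adjusted p = 0.033).

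Adaptors of the interleukin-17 and interleukin-18 receptors were all measured, 15 of 15. In tdTomato- Treg against Tconv 7 rose and 2 fell, with a median of 0.21, where 52.1% of all genes tested passed. Irak2, a kinase downstream of Myd88, rose by 1.93 (SE 0.09, limma adjusted p = 1.4e-11), Nfkbiz, a nuclear partner of NF-kB, by 1.25 (SE 0.10, adjusted p = 2.0e-08) and Traf5 by 0.58 (SE 0.11, adjusted p = 2.2e-04). Map3k7, the kinase TAK1, fell by 0.24 (SE 0.06, limma adjusted p = 0.0026), and Tollip fell by 0.28 (SE 0.09, adjusted p = 0.016). The call of Tollip was lost without tdTomato- Treg replicate B (0.0791) or D (0.073), without Tconv replicate D (0.0734) and without the libraries of letter D (0.257). None passed in new Treg by limma, where 1 had an unadjusted p under 0.05, against 17.2% of all genes tested.

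Of 22 negative regulators 11 rose and 3 fell in tdTomato- Treg against Tconv, with a median of 0.23, where 52.1% of all genes tested passed. By limma none passed in new Treg. There 5 had an unadjusted p under 0.05, 22.7% of the list against 17.2% of all genes tested. Cish, induced through STAT5, rose by 3.57 (SE 0.09, limma adjusted p = 3.7e-15), Socs3, which binds gp130, by 2.07 (SE 0.11, adjusted p = 8.2e-11) and Socs5 by 1.65 (SE 0.09, adjusted p = 1.3e-10). Ptpn6, the phosphatase SHP-1, fell by 0.83 (SE 0.07, limma adjusted p = 3.3e-08), Ptpn2 by 0.36 (SE 0.09, adjusted p = 0.0029) and Pias2 by 0.22 (SE 0.07, adjusted p = 0.013). Pias2 lost its call without Tconv replicate A (0.0587) or without letter D (0.0731).

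Genes that STAT factors are known to induce were also counted. Of 13 genes induced through STAT3, 11 rose and Il21 fell in tdTomato- Treg against Tconv (median 2.07), with Rora up by 2.22, Pim1 by 2.87 and Maf by 4.05 (SE 0.06, 0.08 and 0.13, limma adjusted p of at most 1.2e-13). Pim1, a kinase, was the gene of this list that rose in CD73+ against CD73- new Treg (0.57, SE 0.08, limma adjusted p = 0.0013). At an unadjusted p under 0.05 there were 6 of 13, and 3 of 7 of the next list, against 17.2% of all genes tested. All 7 measured genes induced through STAT6 rose in tdTomato- Treg (median 0.76). The smallest p-values were those of Cish, the same gene as above, which STAT5 also induces, Gata3 (0.49, SE 0.05) and Gfi1 (0.96, SE 0.10). Ccr4 and Ccr8, chemokine receptors on that list, rose by 1.05 and 0.62 in CD73+ against CD73- new Treg (limma adjusted p = 0.0020 and 0.0027). Without the libraries of letter D the differences were 0.97 and 0.62, and the calls were lost (adjusted p = 0.0835 and 0.0532).

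**Figure D4:**
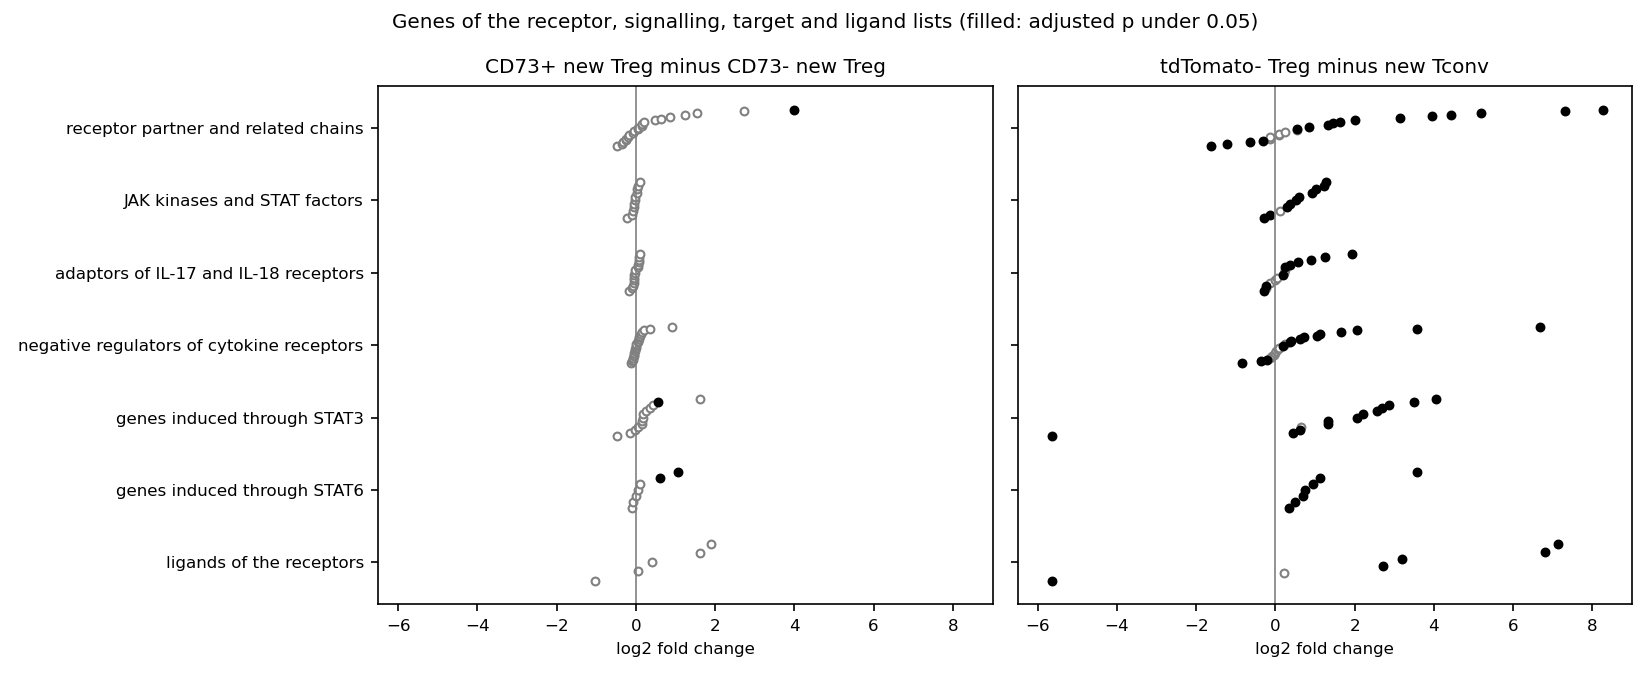
Log2 fold changes (x axis) of the genes of each list, with CD73+ minus CD73- new Treg at the left and tdTomato- Treg minus Tconv at the right. Each point is a gene, filled where its adjusted p is under 0.05. At the left 4 genes are filled, Il1rl1, Pim1, Ccr4 and Ccr8, and at the right all 7 genes induced through STAT6 are filled above zero.

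Ligand genes were few: 11 of 18 were in the files and 6 were tested in tdTomato- Treg against Tconv, where 4 rose and 1 fell. Il10 had a log2 CPM of 1.89, 1.79 and 2.02 in tdTomato- Treg and no counts in any Tconv library. Ebi3, a subunit of interleukin-27 and interleukin-35, was 2.03, 2.38 and 1.88 in tdTomato- Treg and at or under 3 counts in every Tconv library. Lif, a ligand that signals through gp130, averaged 2.30 in tdTomato- Treg against -0.89 in Tconv (limma adjusted p = 8.6e-07). Il21 was at or under 3 counts in every tdTomato- Treg library, against 1.28, 2.29 and 1.75 in Tconv. None of 5 tested ligand genes passed in new Treg by limma, where 1 had an unadjusted p under 0.05, against 17.2% of all genes tested.

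The members most alike in pattern were measured by Pearson correlation over 12 libraries after centring each table. The values mainly carry the contrast of tdTomato- Treg with Tconv, which all genes share, and have no test. Closest to Il18r1 were Thbs3, Traf1 and Ssh1 (0.995, 0.994 and 0.993), closest to Ifngr1 were Rgs1, Fam129a and Tnfrsf18 (0.998, 0.997 and 0.997), and closest to Il10ra were Slc22a5, Frmd5 and H2-Ob (0.989, 0.982 and 0.981). Among the members, Il18r1 and Ifngr1 were most alike (0.980), and Il10ra and Il17ra most opposed (-0.915).

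Markers of other cell types were summed for each library. Of 14 myeloid and dendritic markers 11 were in the files, with a summed level of 30.7 to 41.7 CPM in tdTomato- Treg against 23.0 to 24.4 in Tconv, and of 26.9 to 29.6 in CD73+ against 18.3 to 29.4 in CD73- new Treg. Between tdTomato- Treg and Tconv, Cst3 (0.87, limma adjusted p = 1.6e-04) and Lyz2 (1.24, adjusted p = 0.016) of that list rose and Itgam fell (-1.73, adjusted p = 6.8e-04). Lyz2 lost its call without tdTomato- Treg replicate A (adjusted p = 0.0951). Flt3 had no counts in tdTomato- Treg. Of 12 innate-like T and NK markers 10 were in the files. Il2rb, which Treg themselves express, makes up most of their sum in Treg. The other 9, a sum taken after the values were seen, came to 12.3 to 13.4 CPM in tdTomato- Treg against 12.4 to 15.7 in Tconv, and to 13.01 to 16.6 in CD73+ against 8.29 to 15.1 in CD73- new Treg. Within that sum Zbtb16, a factor of innate-like T cells, was 0.71, 1.24 and 1.27 in CD73+ against -3.23, -0.72 and -4.46 in CD73- new Treg. It fell in tdTomato- Treg against Tconv (-3.47, limma adjusted p = 3.0e-04), while Eomes (1.79) and Xcl1 (1.63) rose. The 10 markers of CD8 and double-positive thymocytes summed to 46.9 to 53.8 CPM in CD73+ against 46.0 to 109 in CD73- new Treg, and to 88.2 to 109 in tdTomato- Treg against 93.2 to 97.6 in Tconv. Of 8 tested in new Treg, Nkg7 rose and Aqp11 fell (limma adjusted p = 0.033). The median log2 fold change of the 8 was -0.62. Rag1 (-1.31), Cd8a (-0.72), Arpp21 (-0.65), Dntt (-0.58) and Cd8b1 (-0.45) were lower with CD73 and Runx3 (0.50) higher, without passing. An unadjusted p under 0.05 was reached by 6 of the 8, against 17.2% of all genes tested. Over left-out libraries the adjusted p of Aqp11 reached 0.123. In tdTomato- Treg against Tconv 3 of the 8 tested rose: Nkg7 (3.94), Rag1 (1.38) and Arpp21 (1.19). Cd8b1 (-0.89) and Runx3 (-0.62) fell there, where 52.1% of all genes tested passed. Of 9 B cell markers 8 were in the files, at 9.12 to 11.9 CPM in tdTomato- Treg against 3.75 to 5.54 in Tconv. Only 2 of them were tested. Cd79b was higher in tdTomato- Treg (3.21, limma adjusted p = 1.5e-05), and Cd79a did not pass (0.52, adjusted p = 0.48). Among those that failed the filter on low values, Ms4a1 was lower, at a mean of -1.47 against -0.42 in Tconv. Ebf1 (0.01 against -1.42) and Cd22 (0.18 against -1.46) went the other way. The part of these cells in the levels of Il10ra, Ifngr1 and Il18r1 was not tested.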

How the data were processed

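Per the submitters' processing notes, the authors used STAR, RSEM and limma with the mm10 build. For these, versions and options are not given in the sources used here. In the 2 deposited tables, each scaled on its own by the authors, a value is the log2 CPM of a gene in a library. The values themselves gave this unit and its offset of 0.5 count. Each deposited table adds the authors' own log2 fold change, p-value and adjusted p-value per gene. No molecular identifiers are named in the labels, so depth limits cover counting error only.

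All 12 libraries entered 1 limma fit (limma 3.58.1, R 4.3.3) on the deposited log2 values with 4 group means and an intensity trend. Genes were kept where 3 or more libraries reached a log2 CPM of 0. Tests were two-sided with Benjamini-Hochberg adjustment over all genes tested, and the code was tested on simulated data. Same-letter libraries correlated in their deviations from group means at 0.170 to 0.320 between CD73+ and CD73- new Treg and at 0.102 to 0.154 between tdTomato- Treg and Tconv (9342 genes). Different-letter libraries reached at most 0.018 and 0.080 in these comparisons. Every same-letter value exceeded 0.1, and same-letter libraries were taken as pairs only in the alternative with the block. The fit itself has no block for the letter. Calls that the block changes are given for the 10 receptor genes. Between CD73+ and CD73- new Treg they are also named for partner chains and for JAK and STAT genes. Among markers there, 1 CD4 T cell and Treg marker and 1 myeloid and dendritic marker passed with the block, where none did without it. Of the CD8 and double-positive markers 4 passed with it, against 2 without. Other calls that the block changed were not listed.

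Members and lists were chosen with earlier results of these data known. The rule for named genes takes all 10 members, up to 3 genes per list and direction by p-value, Foxp3 and Nt5e, and the 3 genes most alike to each of 3 members; partner chains of members, and genes said to be added, lie outside it. Gene positions and exon lengths come from GENCODE M21, which held 13077 of 13207 gene IDs in the same version. Alternatives changed the filter, the libraries, the block, the scaling, the prior, the offset and the library weights. One gene list and 1 gene are not reported here, and counts over all lists together include them.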

Additional observations from a re-analysis of the deposited data

How the results depend on the processing

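Over 17 alternatives each, the differences of Il4ra, Il6ra, Il10ra, Il17ra, Il18r1, Ifngr1 and Ifnar1 between tdTomato- Treg and Tconv kept their direction and their call. Those of Il21r and Il6st kept their direction and lost the call in some: Il21r with centred libraries (0.12), quantile normalisation (0.12) and without letter D (0.175), with 0.12 to 0.18 over left-out libraries, and Il6st without letter D (0.135), with 0.145 to 0.195 over left-out libraries. Il27ra ran from -0.0233 (without Tconv replicate B) to 0.15 over left-out libraries. Between CD73+ and CD73- new Treg, Il10ra was not past the threshold with only the groups compared (0.62), without letter D (0.525) and in the authors' deposited table (0.61), and was 0.57 to 0.65 over left-out libraries. Il17ra passed with the replicate block (-0.17), and Il6ra changed sign with quantile normalisation (0.019) and ran from -0.04 to 0.025 over left-out libraries. The count of genes past the threshold between CD73+ and CD73- new Treg, 273 in the main analysis, was 630 with the replicate block, 146 with only the groups compared, 107 without the intensity trend, 46 without letter D and 151 in the authors' deposited table, and 95 to 360 over left-out libraries. Leaving out CD73+ A gave 99, CD73+ B 95, CD73- A 157 and CD73- D 127. Members of the gene lists past it, 6 in the main analysis, were 13 with the replicate block, 1 without letter D and 4 to 9 over left-out libraries. Between tdTomato- Treg and Tconv the count, 5834 in the main analysis, was 4548 to 6558 over all alternatives. The block changed no other call of the 10 receptor genes. The causes were not tested. With 3 libraries a group, the median SE of a log2 fold change was 0.11.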
